A study of Mus musculus with 2 samples.

Results

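A group of 10 genes of the Wnt pathway was followed through the ileal epithelium of WT and Tipe0-/- mice. It comprises the Wnt receptors and co-receptor Fzd5, Fzd7 and Lrp6, the R-spondin receptors Lgr4 and Lgr5, the E3 ubiquitin ligases Rnf43 and Znrf3, and the feedback inhibitors Axin2, Nkd1 and Notum. Each is the row of the deposited matrices that carries its symbol, and all 10 were found among the 27998 genes of the matrices. Tipe0 (Tnfaip8) encodes a phospholipid transfer protein of the TIPE family, and Tipe0-/- mice lack it. The data are 2 droplet-based sc-RNASeq libraries from healthy mice, 1 of wild type (WT) genotype and 1 of genotype TNFAIP8-/- (Tipe0-/-), both of C57BL/6 strain background and 8 weeks of age. Each library holds ileal epithelial cells of several mice that were pooled before sequencing, so mice cannot be told apart within a library, and genotype cannot be told apart from pool. Cells of both groups were released with EDTA and digested with enzymes before 10X 3′ v2 capture. The labels name Collagenase and Dispase, and the methods of the study name DNAse I in place of Collagenase, a difference that applies to both libraries.

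Wnt proteins bind Frizzled receptors such as Fzd5 and Fzd7 together with the co-receptor Lrp6, which keeps β-catenin from being degraded and lets it act with TCF factors on target genes. Rnf43 and Znrf3 remove Frizzled receptors from the cell surface, and R-spondins bound to Lgr4 or Lgr5 hold these ligases back. Axin2, Nkd1, Notum, Rnf43 and Znrf3 are target genes of the pathway that dampen it in turn, Axin2 as a scaffold of the β-catenin destruction complex, Nkd1 by binding Dishevelled, and Notum by removing the lipid from secreted Wnts. In the small intestine the pathway is known for maintaining the Lgr5+ stem cells at the base of the crypts, beside the Paneth cells.

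The genes lie at the following places in the GRCm38 build of the mouse genome. Fzd5 is at chr1:64730558-64737751 on the minus strand, Fzd7 at chr1:59482424-59486955 on the plus strand and Lrp6 at chr6:134446476-134566965 on the minus strand. Lgr4 is at chr2:109917647-110014257 (plus) and Lgr5 at chr10:115450311-115587780 (minus). Rnf43 is at chr11:87662722-87735539 (plus), Znrf3 at chr11:5276324-5444847 (minus) and Axin2 at chr11:108920349-108950783 (plus). Nkd1 is at chr8:88521354-88594884 (plus) and Notum at chr11:120653788-120661175 (minus). Genes on the other strand overlap Lgr5 (A930009A15Rik), Axin2 (Gm11670) and Notum (Notumos and Myadml2os). Whether reads were assigned by strand is not given in the sources used here, and whether reads of such a pair were mixed was not tested.

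Promoter windows from RefSeq (GRCm38.p6) were matched by symbol for 6 of the 10 genes (Axin2, Fzd5, Fzd7, Lgr4, Nkd1 and Rnf43), the last with 2 windows. None was matched for Lgr5, Lrp6, Notum or Znrf3. Each window has 300 bases, 250 before the start used there and 50 after it. That start is the gene start given above for Axin2, Fzd5 and Lgr4. By the places given above, the Rnf43 and Nkd1 windows lie inside the gene, and the Fzd7 window ends before it. The windows of Axin2 and Fzd5, whose levels had the smallest counting error among the genes that stood out in Tipe0-/- over whole libraries, are shown with 1 window of Rnf43 as a stem-enriched gene of another base composition. CpG sites are in capitals.
Axin2, chr11:108920099-108920398, plus strand: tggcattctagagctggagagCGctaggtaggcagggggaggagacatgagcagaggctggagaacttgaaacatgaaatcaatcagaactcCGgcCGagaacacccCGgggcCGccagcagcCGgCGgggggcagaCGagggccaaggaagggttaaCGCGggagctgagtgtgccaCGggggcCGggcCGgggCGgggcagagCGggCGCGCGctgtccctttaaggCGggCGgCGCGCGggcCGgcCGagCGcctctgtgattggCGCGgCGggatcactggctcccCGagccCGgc
Fzd5, chr1:64737701-64738000, minus strand: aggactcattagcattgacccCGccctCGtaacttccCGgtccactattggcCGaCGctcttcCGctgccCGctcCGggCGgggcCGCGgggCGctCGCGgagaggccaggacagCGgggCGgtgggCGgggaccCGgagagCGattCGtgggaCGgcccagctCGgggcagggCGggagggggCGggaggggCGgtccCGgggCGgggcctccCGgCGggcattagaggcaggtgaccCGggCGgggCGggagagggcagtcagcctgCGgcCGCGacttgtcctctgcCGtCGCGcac
Rnf43, chr11:87662837-87663136, plus strand: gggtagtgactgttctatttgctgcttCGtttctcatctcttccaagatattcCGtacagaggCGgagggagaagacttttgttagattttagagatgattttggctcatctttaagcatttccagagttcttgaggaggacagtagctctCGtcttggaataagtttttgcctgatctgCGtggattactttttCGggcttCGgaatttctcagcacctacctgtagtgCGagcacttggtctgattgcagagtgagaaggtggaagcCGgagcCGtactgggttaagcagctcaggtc
The Fzd5 window held 38 CpG sites, a number that 4.95% of the 32851 promoter windows of the table reached, and the Axin2 window held 31, which 10.6% reached. The Rnf43 window shown held 10, close to the median of 7 over all windows. The letters CTTTGA, 1 form of the core of the motif bound by TCF factors, were searched on both strands (TCAAAG on the other). They were in none of the 7 windows and in 16.0% of all windows, and 7 windows are too few to read a difference from that share. No other motif and no other form of this core, such as CTTTGT, was searched, so absence of a TCF motif is not shown. A window of this length leaves out most of the regulatory sequence of a gene.

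The WT library holds 3402 cells and 38127808 UMIs (unique molecular identifiers, each counting 1 captured mRNA molecule), and the Tipe0-/- library 2006 cells and 23897126 UMIs. The median cell had 7760 UMIs in WT and 7307.5 in Tipe0-/-. Tnfaip8 itself had 372 UMIs in WT and 57 in Tipe0-/-, or 9.76 and 2.39 UMIs per 1000000 of the library (CPM), a log2 ratio of -2.02 (95% counting interval -2.46 to -1.63). Mitochondrial genes took 6.59% of WT and 8.56% of Tipe0-/- UMIs, and 9 cell barcodes occur in both libraries. With 1 library per genotype no test between genotypes was possible, and all intervals below are 95% intervals for counting error only, exact Poisson for CPM, exact binomial for ratios and Clopper-Pearson for shares of cells.

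Cells were clustered without the 10 genes and without other listed Wnt genes. Of 13 clusters, 11 could be named from markers. The stem markers hold none of the 10 genes but do hold the Wnt targets Ascl2 and Tnfrsf19, so the stem-like name is not independent of Wnt target levels. Of the 382 WT stem-like cells, 319 are in cluster 3, which scored higher on cycling than on stem markers and took its name from Ascl2 among its leading genes, and the rest are in cluster 11. Stem-like cells made up 11.2% of WT (382 cells) and 15.9% of Tipe0-/- cells (319), cycling-like cells 8.58% and 7.78%, goblet-like cells 22.3% and 25.7%, and Paneth-like cells 8.32% and 6.93%. Tuft-like cells made up 4.67% and 2.59%, enterocyte-like cells 23.4% and 20.1%, and lymphocyte-like cells 2.70% and 0.847%. The labels call the cells enterocytes, and by their markers most cells of both libraries belonged to other classes. Cluster 2, led by the DNA replication genes Dtl, Cdc6 and Ccne2, and cluster 6, led by Lrg1, Gsdmc3, Gsdmc4 and Akr1c19, had too few markers for a name. Of the 10 mesenchyme and endothelium markers other than Vim, 3 (Pdgfra, Foxl1 and Cdh5) were at 0 UMIs in both libraries, and the list summed to 5.80 CPM in WT and 5.57 in Tipe0-/-.

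Fzd5, a receptor for canonical Wnts, had UMIs in every class and its lowest CPM in Paneth-like cells. In WT it stood at 150.0 CPM in cluster 6, 128 in cycling-like, 98.3 in tuft-like, 80.9 in goblet-like, 76.2 in cluster 2, 70.1 in enterocyte-like, 55.6 in stem-like, 33.2 in lymphocyte-like and 12.2 in Paneth-like cells. In Tipe0-/- the levels were 221, 212, 144, 109.8, 121, 117, 85.6, 43.2 and 24.9 CPM in the same order of classes. Its level in cluster 6 was 2.70-fold (2.26 to 3.23) that of stem-like cells in WT and 2.59-fold (2.16 to 3.09) in Tipe0-/-. In WT, 6 of the 8 steps between neighbours in this order were larger than their counting intervals. In Tipe0-/-, where cluster 2 and enterocyte-like cells came before goblet-like cells, 2 of the 8 steps of its own order were. The enterocyte-like class was not uniform for Fzd5, which had 38.3 CPM in its cluster 1, led by Apoa4 and Apoa1, and 105 in its cluster 4, led by Ms4a18, Arg2 and the ileal bile acid binding protein gene Fabp6, in WT.

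Fzd7, a receptor known for maintaining intestinal stem cells, was sparse, with 122 UMIs in WT and 127 in Tipe0-/-. In WT its highest level was in stem-like cells, at 11.5 CPM (8.19 to 15.6) from 40 UMIs, against 4.08 CPM in enterocyte-like cells and between 0.542 and 2.53 CPM in the other classes. In Tipe0-/- stem-like cells had 8.64 CPM and cluster 2 had 9.62 CPM, and these neighbours were not separated beyond their counting intervals. Lrp6, the co-receptor, differed by 4.94-fold between its highest and lowest class in WT and by 4.85-fold in Tipe0-/-. Its level lay between 43.4 and 52.2 CPM in WT in all classes except lymphocyte-like cells (31.1 CPM) and Paneth-like cells (10.6 CPM). In Tipe0-/- the corresponding range was 52.9 to 70.1 CPM, with 32.4 CPM in lymphocyte-like and 14.5 CPM in Paneth-like cells. Enterocyte-like cells had 4.88-fold (3.80 to 6.43) the Lrp6 level of Paneth-like cells in WT and 4.82-fold (3.59 to 6.65) in Tipe0-/-. In CPM alone, fewer transcripts of a gene per cell and a larger total of other transcripts cannot be told apart. Paneth-like cells of WT had a median of 20967 UMIs, against 6449.5 in enterocyte-like cells. Lrp6 had 71 UMIs in 283 Paneth-like and 356 in 796 enterocyte-like cells of WT, which is less far apart per cell than in CPM.

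**Figure D1:**
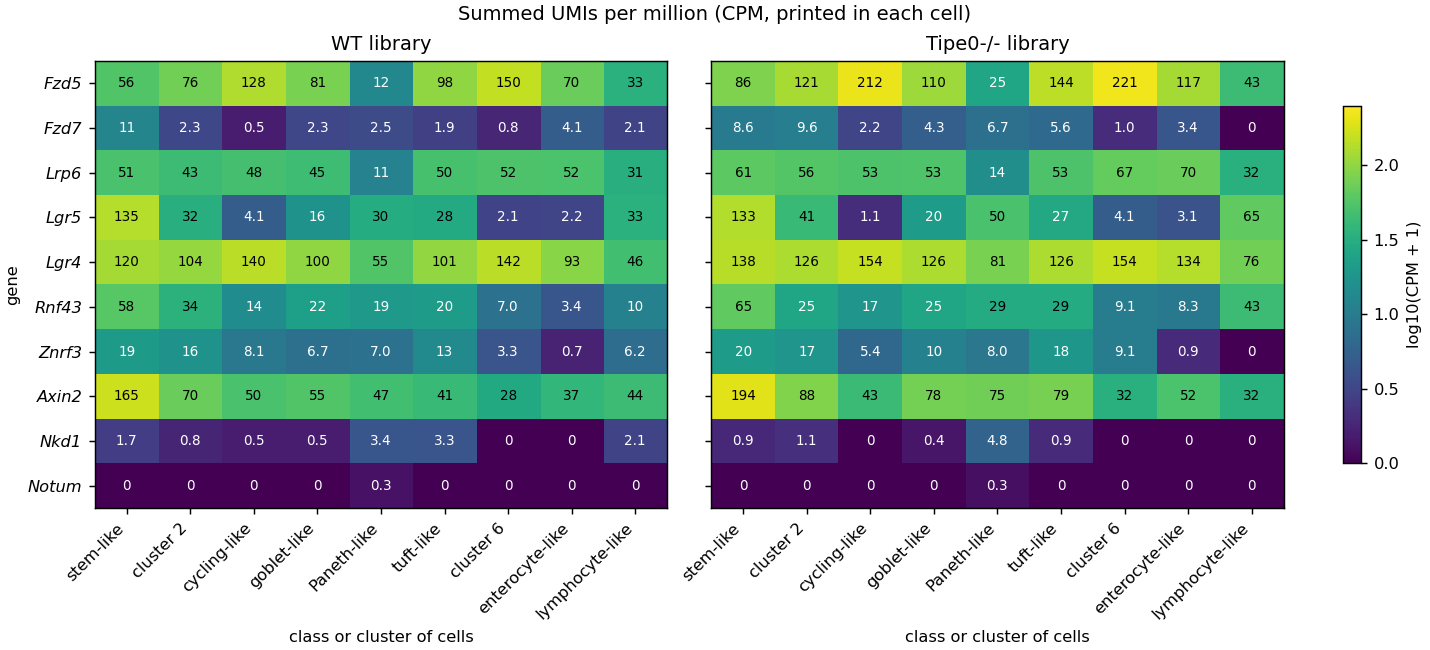
Level of each gene (rows) in each class or cluster of cells (columns), in summed UMIs per 1000000 (CPM, printed in each field), with colour on a log10(CPM + 1) scale, in the WT library (left) and the Tipe0-/- library (right). Lgr5, Rnf43, Znrf3 and Axin2 are highest in stem-like cells in both libraries, and Fzd5, Lrp6 and Lgr4 have UMIs in every class, with Fzd5 and Lrp6 lowest in Paneth-like cells.

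The R-spondin receptors had different patterns. Lgr5, the receptor that marks crypt base stem cells, stood at 135 CPM (123 to 148) in WT and 133 CPM (121 to 146) in Tipe0-/- stem-like cells, and these levels overlapped. It was next highest in lymphocyte-like cells, cluster 2, Paneth-like and tuft-like cells, between 28.1 and 33.2 CPM in WT and between 27.1 and 64.8 CPM in Tipe0-/-. In enterocyte-like cells it was near the bottom of its range, at 2.19 CPM in WT and 3.07 in Tipe0-/-, so that stem-like cells had 59.9-fold (37.1 to 111) its enterocyte-like level in WT and 41.2-fold (23.3 to 90.7) in Tipe0-/-. Of the 2 stem-like clusters, cluster 11, led by Vwa2, Rdh1 and Slc14a1, had the higher Lgr5 level, with 219 CPM in WT and 273 in Tipe0-/-, against 122 and 108 in cluster 3. Cycling-like cells held almost no Lgr5, with 15 UMIs in WT and 2 in Tipe0-/-. This depends on naming, because cluster 3, which scored higher on cycling than on stem markers, was counted as stem-like. It held 370 of 1019 Lgr5 UMIs in WT and 318 of 923 in Tipe0-/-. The value for lymphocyte-like cells rests on few cells, since 8 of 92 WT cells held the 16 Lgr5 UMIs, 7 of them in 1 cell, and 2 of 17 Tipe0-/- cells held 6, with 5 in 1 cell.

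Lgr4, the other R-spondin receptor, was broad, with the smallest ratio of highest to lowest class among the genes with UMIs in every class, 3.11-fold in WT and 2.04-fold in Tipe0-/-. In WT it ranged from 93.2 CPM in enterocyte-like cells to 142 CPM in cluster 6 among 7 of the 9 classes, with 55.1 CPM in Paneth-like and 45.7 CPM in lymphocyte-like cells. In Tipe0-/- the range of these 7 classes was 126 to 154 CPM, with 80.8 CPM in Paneth-like and 75.7 CPM in lymphocyte-like cells. Counted per cell, Paneth-like cells were not below enterocyte-like cells, with 370 Lgr4 UMIs in 283 WT cells against 639 in 796. Stem-like cells, at 119.5 CPM in WT and 138 in Tipe0-/-, were not the highest class in either library. Of Lgr5 UMIs 46.3% (43.2 to 49.4) lay in WT stem-like cells and 49.9% in those of Tipe0-/-, whereas of Lgr4 UMIs 11.1% and 16.1% did, beside 9.15% and 14.5% of all UMIs. Most of the stem-like part lay in cluster 3, with 36.3% of Lgr5 UMIs in WT and 34.5% in Tipe0-/-, and cluster 11 alone held 102 of 1019 and 143 of 923.

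The ligases Rnf43 and Znrf3 had their highest CPM in stem-like cells, which for Znrf3 was not separated from the next classes. Rnf43 stood at 58.2 CPM (50.5 to 66.8) in WT and 64.5 CPM (56.4 to 73.6) in Tipe0-/- stem-like cells and at 3.35 and 8.30 CPM in enterocyte-like cells. The stem-like level was 17.0-fold (11.2 to 28.0) the enterocyte-like level in WT and 7.65-fold (5.20 to 12.1) in Tipe0-/-. Between these ends, goblet-like, Paneth-like and tuft-like cells had 18.8 to 21.5 CPM in WT and 24.6 to 28.9 in Tipe0-/-, and neighbours among them did not differ beyond counting error. Znrf3 was lower in UMIs, 295 in WT and 250 in Tipe0-/-. It stood at 19.5 CPM in WT and 20.2 in Tipe0-/- stem-like cells, at 16.0 and 17.0 in cluster 2 and at 13.1 and 17.7 in tuft-like cells, an order that was not separated beyond counting error. In enterocyte-like cells Znrf3 had 5 UMIs in WT and 3 in Tipe0-/-.

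Axin2, the destruction complex scaffold often used as a readout of Wnt activity, had its highest CPM in stem-like cells and UMIs in all classes. It stood at 165 CPM (152 to 179) in WT and 194 CPM (180 to 209) in Tipe0-/- stem-like cells. The next level was that of cluster 2, at 69.5 and 87.7 CPM. Enterocyte-like cells had 37.5 CPM in WT and 51.9 in Tipe0-/-, so the stem-like level was 4.40-fold (3.80 to 5.13) higher in WT and 3.73-fold (3.15 to 4.45) in Tipe0-/-, a smaller ratio than those of Lgr5, Rnf43 and Znrf3. Within the goblet-like class the gene was uneven, with 72.3 CPM in WT in cluster 0, led by Spdef, Creb3l1 and Dll1, but 7.51 CPM in cluster 8, led by the mature goblet genes Zg16, Fcgbp, Clca1 and Tff3. Cluster 11 had the highest Axin2 level of all clusters, 282 CPM in WT and 292 in Tipe0-/-.

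Nkd1 and Notum, both secondary brakes on Wnt signalling, were rare. Nkd1 had 46 UMIs in WT and 27 in Tipe0-/-, of which 23 and 18 lay in Paneth-like cells, at 3.43 CPM (2.17 to 5.14) and 4.82 CPM (2.86 to 7.61). Paneth-like cells held 17.6% and 15.6% of all UMIs. In WT, tuft-like cells stood at 3.28 CPM from 7 UMIs, not separated from Paneth-like cells. Of all WT clusters, stem-like cluster 11 had the highest Nkd1 level, from 2 UMIs. In Tipe0-/-, Paneth-like cells lay above the next class, cluster 2, by a log2 ratio of 1.81 (0.03 to 5.24). No Nkd1 UMI was found in enterocyte-like cells or in cluster 6 of either library, which in enterocyte-like cells allows a level of up to 0.437 CPM in WT and 0.922 in Tipe0-/- (3 counts of the total). Notum had 2 UMIs in WT and 1 in Tipe0-/-, all in Paneth-like cells, and was too sparse for any comparison.

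**Figure D2:**
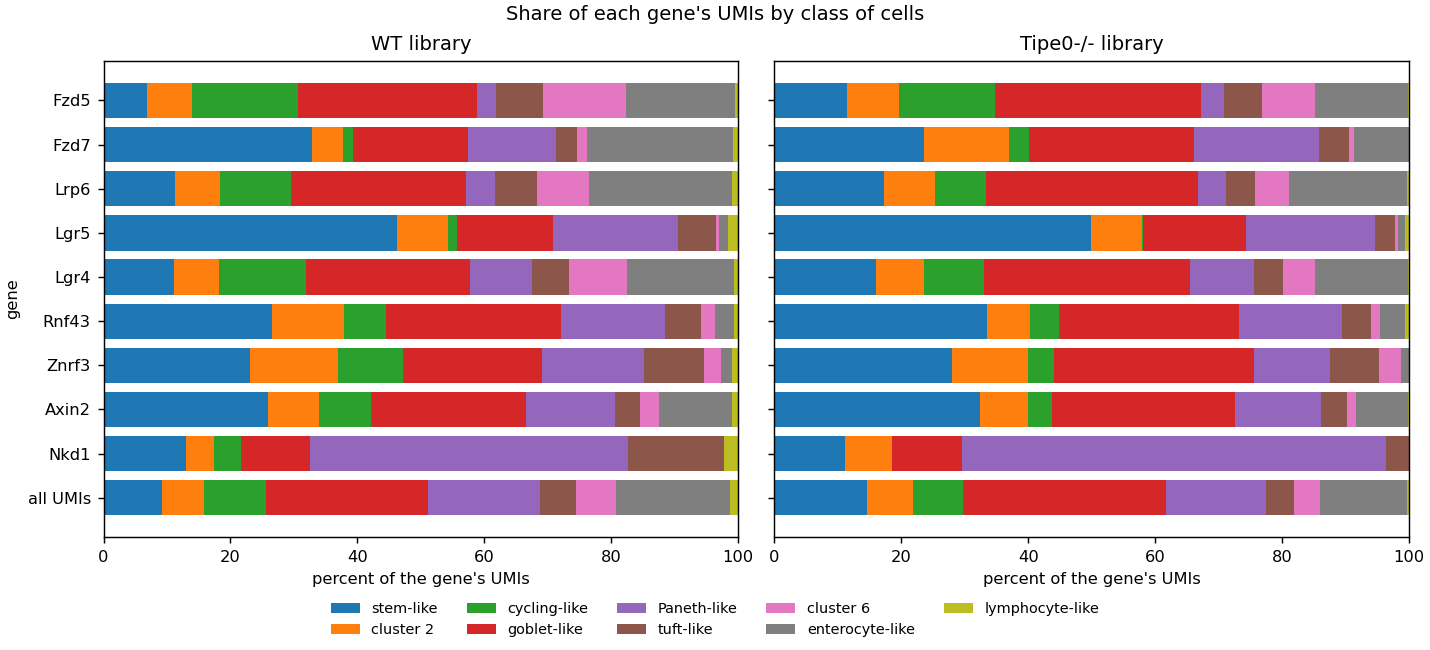
Share of the UMIs of each gene (bars, percent of the gene's UMIs in the library) that lies in each class or cluster of cells (colours), with all UMIs of the library as the bottom bar, in WT (left) and Tipe0-/- (right). Notum, with 3 UMIs, is left out. The stem-like part is 46.3% for Lgr5 but 6.92% for Fzd5 in WT, and the Paneth-like part is largest for Nkd1.

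Over the 13 clusters, with both libraries summed, the levels of the genes fell into patterns that can be described by Pearson's r of log2(CPM + 1), given without a test because clusters share libraries and depth. Lgr5 was most like Rnf43 (r = 0.92), followed by Axin2 (r = 0.83) and Znrf3 (r = 0.80), apart from the sparse Nkd1. Fzd5, Lgr4 and Lrp6 resembled each other, with r = 0.80 for Lgr4 and Fzd5, 0.78 for Fzd5 and Lrp6 and 0.71 for Lgr4 and Lrp6. Between the patterns r was low or negative, at -0.37 for Lgr5 and Fzd5 and -0.18 for Lgr5 and Lgr4.

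The genes most like each of them were taken from the 7957 genes with at least 500 UMIs. For Lgr5 these were Amica1 (r = 0.98), Smoc2 (r = 0.97) and Msi1 (r = 0.96), of which Smoc2, a secreted matricellular protein gene, was also among the stem markers used to name clusters. Rnf43 was most like Efna4, Igfbp4 and Slco3a1 (r between 0.97 and 0.98), and Znrf3 most like Sox9, a crypt transcription factor gene, Pla2g4a and Lipt2 (r between 0.96 and 0.97). For Axin2 the closest were Car12, Grb7 and Pdxk (r between 0.93 and 0.94), and for Fzd7 Jun, Grb7 and Macrod1 (r between 0.89 and 0.91). Lgr4 was closest to Ccl28, Adgra3 and Lrig3 (r between 0.93 and 0.95), Lrp6 to Laptm4a, Ermp1 and Golim4 (r = 0.96 for each), and Fzd5 to Vstm5, Ndufb10 and Akr1c13 (r = 0.98 for each). For Nkd1, with 73 UMIs in all, the closest were Ephb3, Lgr5 and Amica1 (r between 0.83 and 0.85). Those of Notum, Gm15299, Gm21002 and Gm15308, rest on 3 UMIs and are not read.

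Compared between genotypes over whole libraries, 8 of the 9 genes with at least 50 UMIs were higher in Tipe0-/- than the shift of all genes. The median log2 ratio of the 11665 genes tested at this minimum was 0.15, and 69.3% of them were above 0, so a gene is read against that shift. The median of the 9 genes was 0.48. A log2 distance of 0.32 from the shift was taken as the threshold for counts. Past it on the higher side lay 5 of the 9 (Lgr5, Rnf43, Axin2, Fzd5 and Fzd7), as did 13.9% of all tested genes. Past it on the lower side lay 0 of the 9, as did 15.9% of all tested genes. Rnf43 passed narrowly, at 0.324 above the shift against an unrounded threshold of 0.322. The counting intervals of Lgr5, Rnf43 and Fzd7 reach below the threshold, and those of Axin2 and Fzd5 do not.

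Among the receptors, Fzd5 had 73.6 CPM (70.9 to 76.3) in WT and 109 CPM (104 to 113) in Tipe0-/-, giving a log2 ratio of 0.56 (0.48 to 0.64). Fzd7 had 3.20 CPM in WT and 5.31 in Tipe0-/-, giving a log2 ratio of 0.73 (0.36 to 1.10), the highest of the 9 and the one with the widest interval after Nkd1. Lrp6 had 41.3 and 51.3 CPM, a log2 ratio of 0.31 (0.20 to 0.42). The counting intervals of all 3 receptors lay above the shift. The share of all tested genes for which this holds is not given.

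Of the R-spondin receptors, Lgr4 had 98.7 CPM in WT and 125 in Tipe0-/-, giving a log2 ratio of 0.34 (0.27 to 0.41), and Lgr5 a log2 ratio of 0.53 (0.40 to 0.66). Rnf43 had 20.1 CPM in WT and 28.0 in Tipe0-/-, giving a log2 ratio of 0.48 (0.33 to 0.63). Znrf3 had 7.74 and 10.5 CPM, a log2 ratio of 0.44 (0.19 to 0.68). Axin2 had 58.3 CPM (55.9 to 60.8) in WT and 86.8 CPM (83.1 to 90.6) in Tipe0-/-, giving a log2 ratio of 0.57 (0.49 to 0.66), at the 91.0th percentile of all tested genes. Nkd1, at 1.21 CPM in WT and 1.13 in Tipe0-/-, was not detectably different, with a log2 ratio of -0.08 (-0.84 to 0.62).

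The libraries differ in the share of stem-like cells, and several of these genes are concentrated there, so the ratios were also computed after giving every class the same weight in WT and Tipe0-/-. The shift of all genes was then 0.12. The log2 ratio of Lgr5 became 0.22, that of Rnf43 0.28, that of Znrf3 0.26 and that of Axin2 0.40. By contrast, Fzd5 stood at 0.61, Lgr4 at 0.33 and Lrp6 at 0.30, close to their values over whole libraries, and Fzd7 at 0.57. At the same makeup, 2 of the 9 genes, Fzd5 and Fzd7, lay past the threshold, and all 8 genes other than Nkd1 still lay above the shift. The share of all tested genes past the threshold at this makeup is not given. Over whole libraries that share was 13.9%, so the count of 2 is not read as a result about the 9 genes. In a sum over a library, more cells of a class and more transcripts per cell cannot be told apart.

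**Figure D3:**
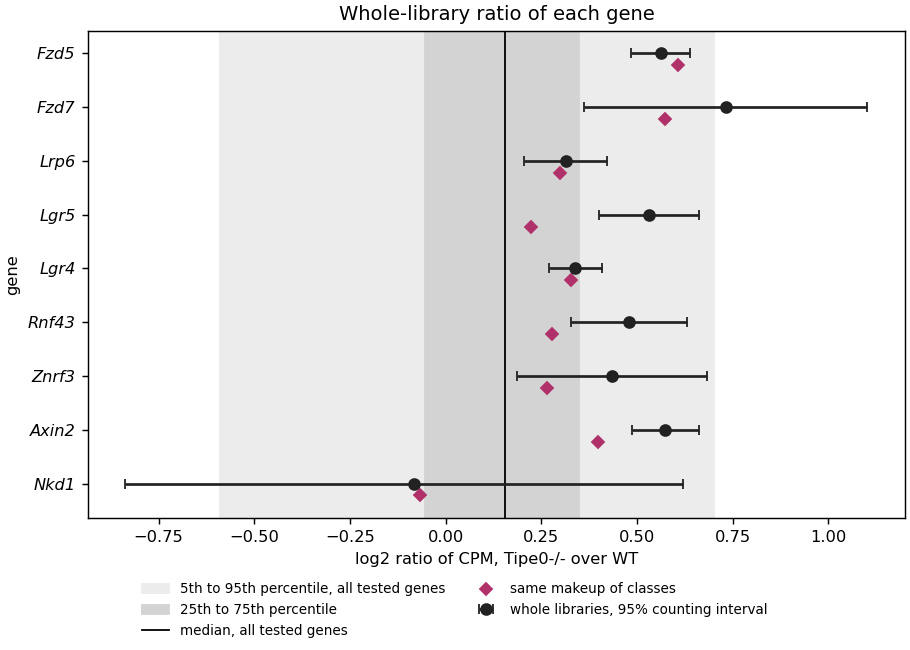
Log2 ratio of CPM, Tipe0-/- over WT (x axis), of the 9 genes with at least 50 UMIs, over whole libraries with 95% counting intervals (black points and bars) and with classes given the same weights in both (diamonds, no interval drawn). Grey bands span the 25th to 75th and 5th to 95th percentiles of all tested genes and the line marks their median of 0.15. The diamonds of Lgr5, Rnf43, Znrf3 and Axin2 lie to the left of their points, while those of Fzd5, Lgr4 and Lrp6 stay close to theirs.

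Within classes, Fzd5 was past the threshold in all 8 classes or clusters in which it was tested. By shares of cells, given below, 3 of these 8 in WT and 2 in Tipe0-/- lay above the lymphocyte-like background for Fzd5. That background rests on 92 and 17 cells, and its intervals are too wide to separate most of the other classes. The thinned share of Paneth-like cells of WT lay below that background. Counted per cell before thinning they were not below it, with 82 Fzd5 UMIs in 283 Paneth-like and 16 in 92 lymphocyte-like cells. Their ratio is not read as a change in expression. The log2 ratio of Fzd5 was 0.62 (0.36 to 0.89) in stem-like, 0.67 (0.38 to 0.96) in cluster 2, 0.73 (0.53 to 0.93) in cycling-like, 0.44 (0.30 to 0.58) in goblet-like and 1.03 (0.58 to 1.47) in Paneth-like cells. In tuft-like cells it was 0.55 (0.24 to 0.86), in cluster 6 0.56 (0.31 to 0.81) and in enterocyte-like cells 0.74 (0.54 to 0.94). All 8 ratios lay at least 0.32 above the shift of their class, which was between 0.01 and 0.15 except for 0.48 in Paneth-like cells. Under the 8 alternatives, run for the named classes, the goblet-like ratio lay past the threshold in 6 and was 0.20 above the shift of its class with 2000 variable genes and 0.31 with thinned cells, and the 5 other ratios lay past it in 8 of 8. The Fzd5 CPM was higher in Tipe0-/- in 13 of 13 clusters, as were those of Lgr4 and Lrp6, whose within-class ratios were smaller. These counts are against 0, above which between 50.7% (tuft-like) and 90.4% (Paneth-like) of the tested genes of a class lay. Against the shift of each cluster, Fzd5 and Lgr4 lay above in 12 of 12 tested clusters and Lrp6 in 11 of 12. By class, Lgr4 also lay above the shift in all 8 classes or clusters, by 0.06 to 0.37.

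The share of all genes past the threshold differs by class, and the counts of the 10 genes are read beside it. In stem-like cells 8 of the 10 genes reached 50 UMIs, of which 1 (Fzd5) lay above and 1 (Fzd7) below, against 15.2% and 15.6% of all tested genes. In cluster 2 it was 3 of 7 above (Fzd5, Lgr5 and Lrp6) and 1 below (Rnf43), against 18.8% and 19.2%. In cycling-like cells it was 1 of 5 above (Fzd5), against 17.4%, and in Paneth-like cells 1 of 7 (Fzd5), against 16.5%. In goblet-like cells 4 of 8 lay above (Fzd5, Fzd7, Axin2 and Znrf3), against 13.4%, and in tuft-like cells 3 of 6 (Fzd5, Axin2 and Rnf43), against 19.7%. In cluster 6 it was 1 of 4 (Fzd5), against 20.9%, and in enterocyte-like cells 3 of 5 (Fzd5, Lgr4 and Rnf43), against 19.9%. In cluster 2 the counting intervals of Lgr5 (-0.09 to 0.86), Lrp6 (-0.04 to 0.77) and Rnf43 (-0.97 to 0.12) include 0. That of Rnf43 in tuft-like cells (-0.19 to 1.22) does too. None of the 10 genes reached 50 UMIs in lymphocyte-like cells, and outside stem-like cells and cluster 2 none of those tested lay 0.32 or more below the shift of its class.

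Lgr5 and Axin2 differed by less within stem-like cells than over whole libraries. The log2 ratio of Lgr5 in stem-like cells was -0.03 (-0.22 to 0.16), beside 0.22 with equal weights of classes and 0.53 over whole libraries. In Paneth-like cells Lgr5 stood at 29.9 CPM (25.9 to 34.4) in WT and 50.3 CPM (43.4 to 58.0) in Tipe0-/-, giving a log2 ratio of 0.75 (0.46 to 1.04), in a class whose shift was 0.48. Of the 2 stem-like clusters, Lgr5 had a log2 ratio of 0.31 (-0.06 to 0.70) in cluster 11 and of -0.18 (-0.40 to 0.04) in cluster 3. The ratio in the stem-like class was between 0.03 and 0.31 under all 8 alternatives, above 0 in each, so its sign as reported is not read.

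Axin2 had a log2 ratio of 0.23 (0.07 to 0.40) in stem-like, 0.50 (0.33 to 0.67) in goblet-like, 0.47 (0.18 to 0.76) in enterocyte-like and 0.96 (0.51 to 1.41) in tuft-like cells. The WT shares of goblet-like, enterocyte-like and tuft-like cells with Axin2, given below, lay within the lymphocyte-like background. Its interval, from 92 cells, is too wide to separate them. Clusters inside a class were not given equal weight in these ratios. Cluster 0, higher in Axin2 than cluster 8, made up 433 of 757 goblet-like cells in WT and 325 of 516 in Tipe0-/-. The tuft-like value rests on 87 UMIs in WT and 85 in Tipe0-/- and was between 0.18 and 1.05 under the alternatives. In cycling-like cells Axin2 stood at 50.1 CPM in WT and 42.7 in Tipe0-/-, giving a log2 ratio of -0.23 (-0.63 to 0.16) that ranged from -0.23 to 0.43 under the alternatives, so no direction is given. Some of the other counts within classes rest on few UMIs. Rnf43 in enterocyte-like cells had 23 UMIs in WT and 27 in Tipe0-/-, giving a log2 ratio of 1.30 (0.45 to 2.18), and Fzd7 in stem-like cells had 40 and 30, a log2 ratio of -0.40 (-1.14 to 0.31) that changed sign under 2 alternatives.

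**Figure D4:**
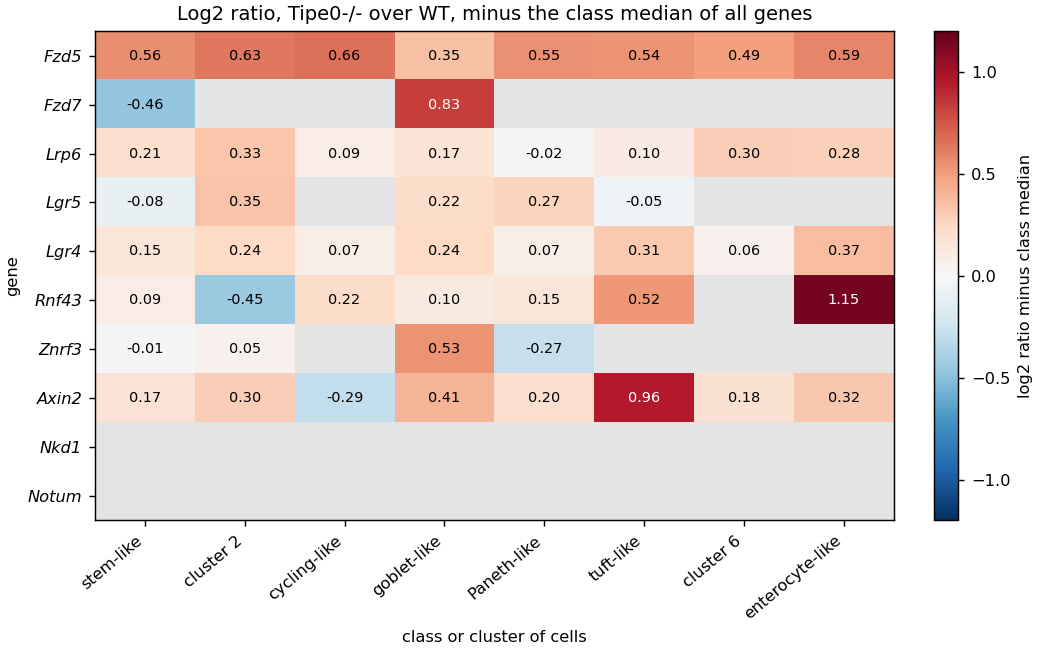
Log2 ratio of CPM, Tipe0-/- over WT, minus the median of all tested genes of the same class, for each gene (rows) and class or cluster (columns). Grey fields had fewer than 50 UMIs in both libraries together. Fzd5 is above the class median in all 8 columns, by 0.35 to 0.66, while Lgr5 and Znrf3 lie close to it in stem-like cells. The WT share of Paneth-like cells with Fzd5 lay below the lymphocyte-like background after thinning, but their Fzd5 UMIs per cell before thinning did not.

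**Figure D5:**
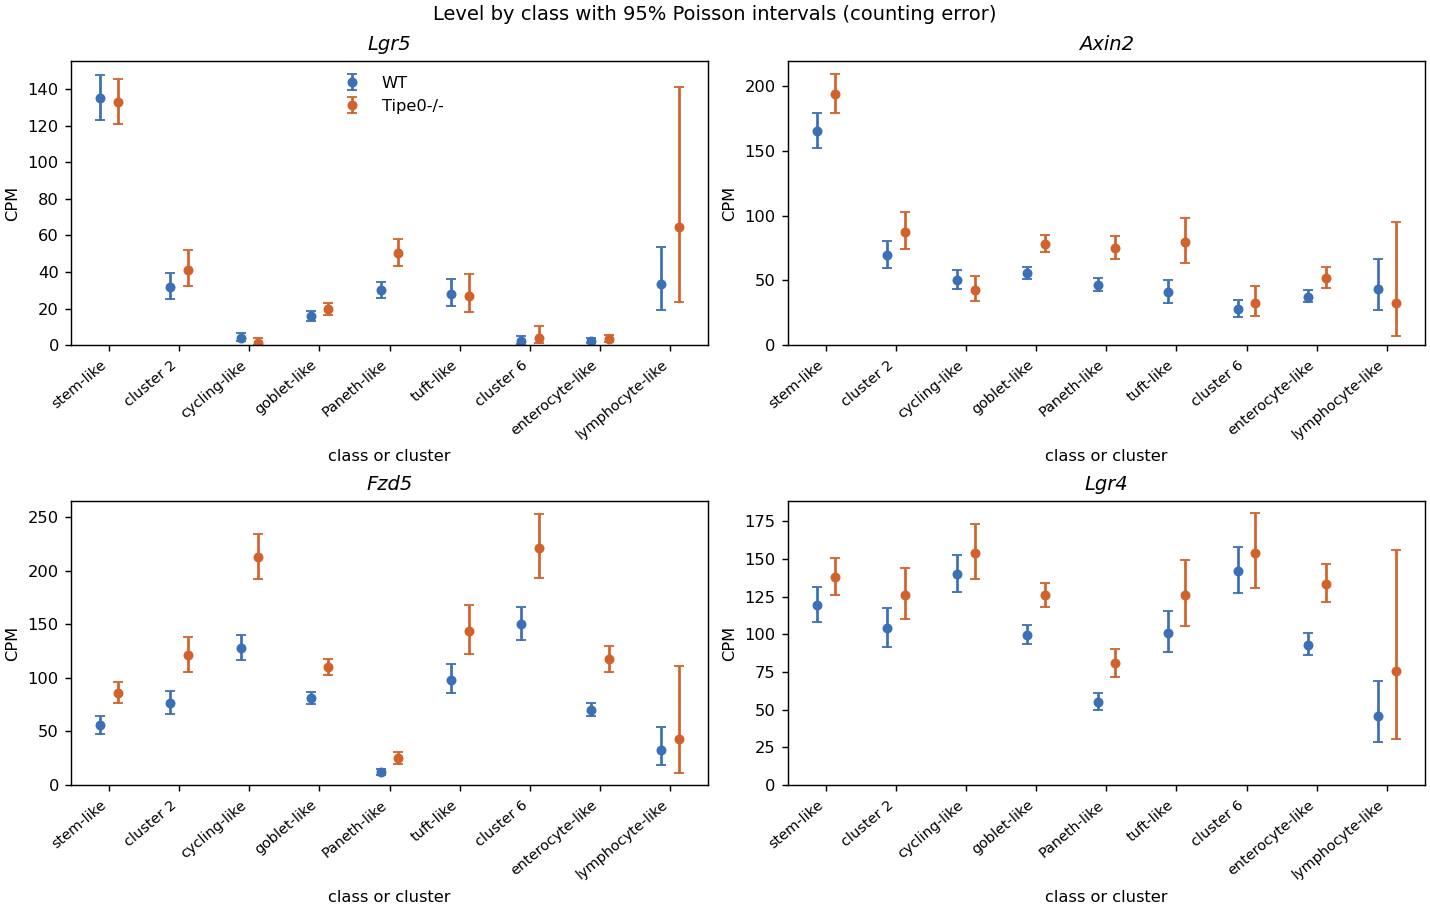
Level (CPM, y axis from 0) of Lgr5, Axin2, Fzd5 and Lgr4 in each class or cluster (x axis) in the WT library (blue) and the Tipe0-/- library (orange), with 95% Poisson intervals for counting error. The Fzd5 intervals of the libraries do not overlap in any class except lymphocyte-like cells, and those of Lgr5 in stem-like cells overlap almost entirely. These levels are not set against the shift of a class, which was 0.48 in Paneth-like cells. The share of all genes without overlap is not given.

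The same contrast was read as shares of cells with at least 1 UMI after each cell was thinned to 3000 UMIs, so that depth does not set the share. Fzd5 was detected in 19.1% (17.8 to 20.5) of WT and 27.3% (25.4 to 29.3) of Tipe0-/- cells, without thinning in 44.7% and 56.4%. In cycling-like cells the thinned share of Fzd5 was 35.3% in WT and 53.8% in Tipe0-/-, and in cluster 6 36.2% and 50.7%. Lgr4 was detected in 27.0% and 32.7% of all cells, and Lrp6 in 11.7% and 15.0%. Lymphocyte-like cells, taken here as a background, gave 10.9% for Fzd5, 8.70% for Lgr4 and 8.70% for Lrp6 in WT. They had a median of 4492 UMIs before thinning against 7760 for all cells. Whether these UMIs came from the lymphocytes themselves, from free RNA or from droplets that also held an epithelial cell was not tested. The background is therefore not a known level of absent expression. The background share of Fzd5 rests on 10 of 92 cells (5.34 to 19.1). Of the 8 other classes of WT, the shares of cycling-like, tuft-like and cluster 6 cells lay above this interval. Those of stem-like (15.4%), cluster 2 (17.9%), goblet-like (17.6%) and enterocyte-like cells (15.7%) lay within it, and that of Paneth-like cells (4.24%) lay below it. A thinned share follows the part of a cell's UMIs, as CPM does. Before thinning, Fzd5 had 82 UMIs in 283 Paneth-like and 16 in 92 lymphocyte-like cells of WT. The Paneth-like share is therefore not read in either direction. For Lgr4, all 8 WT classes, at 19.1% to 36.3%, lay above the background interval of 3.83 to 16.4. For Lrp6, all 8, at 3.89% to 15.1%, lay within the same interval. That interval rests on 8 of 92 cells and is too wide to separate such shares, so whether Lrp6 lies above background was not decided for any class. In Tipe0-/- the background rests on 17 cells, and of the 8 classes cycling-like cells and cluster 6 lay above its interval for Fzd5 (1.46 to 36.4). For Fzd7 the highest share of a class was 3.14% in WT and 3.45% in Tipe0-/-, and 0 of 8 classes lay above the background interval in either library.

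Lgr5 was detected in 34.0% (29.3 to 39.0) of WT and 37.6% (32.3 to 43.2) of Tipe0-/- stem-like cells, but in 0.503% and 0.744% of enterocyte-like cells, which serve as its background and had a median of 6449.5 and 5721 UMIs before thinning, against 6869.5 and 7439 in stem-like cells. Lymphocyte-like cells of WT gave 5.43% for Lgr5 (1.79 to 12.2), an interval above which only stem-like cells lay and within which cluster 2 (10.5%), tuft-like (11.9%), Paneth-like (8.48%) and goblet-like cells (4.23%) lay. Of all cells with a Lgr5 UMI, 51.0% in WT and 60.9% in Tipe0-/- were stem-like, and 14.5% and 15.7% were in cluster 2. Rnf43 was detected in 16.0% and 19.1% of stem-like cells, against 1.01% and 2.48% of enterocyte-like cells. Against lymphocyte-like cells of WT (2.17%, 0.264 to 7.63), stem-like cells and cluster 2 lay above. In Tipe0-/- this background was 3 of 17 cells (17.6%, 3.80 to 43.4), and of the 8 classes 0 lay above its interval and 3 below. Axin2 was detected in 37.7% and 44.2% of stem-like cells. In WT, stem-like cells and cluster 2 (18.8%) lay above the lymphocyte-like interval for Axin2 (3.83 to 16.4), which rests on 8 of 92 cells. The 6 other classes, at 6.21% to 14.8%, lay within it. The interval is too wide to separate such shares, so they are read neither as expression above background nor as its absence.

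Joint detection in single cells was compared over all cells and within stem-like cells, again after thinning. Over all cells, Axin2 was detected in 29.0% (23.5 to 35.0) of WT cells with Lgr5 and 13.4% (12.2 to 14.7) of cells without it, and in Tipe0-/- in 40.1% (33.2 to 47.3) and 17.9% (16.2 to 19.8). Within stem-like cells the same shares were 38.5% (30.1 to 47.4) and 37.3% (31.3 to 43.6) in WT and 47.5% (38.3 to 56.8) and 42.2% (35.3 to 49.4) in Tipe0-/-, and their intervals overlapped. Rnf43 in all cells was detected in 16.5% of WT cells with Lgr5 and 5.15% without, and in stem-like cells in 17.7% (11.6 to 25.4) and 15.1% (10.9 to 20.1). In Tipe0-/- the shares were 20.8% and 6.25% over all cells and, in stem-like cells, 30 of 120 (17.5 to 33.7%) and 31 of 199 (10.8 to 21.4%). The intervals within stem-like cells overlapped in both libraries. Fzd5 went the other way over all cells, at 12.2% (8.41 to 16.8) of WT cells with Lgr5 and 19.7% (18.3 to 21.1) without. In stem-like cells a mean of 1.59 of the 10 genes was detected per WT cell and 1.85 per Tipe0-/- cell, the highest of all classes, and in Paneth-like cells 0.615 and 0.849.

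The rest of the pathway was covered by 99 other Wnt genes, all of which are in the matrices. Of these, 53 reached 50 UMIs, with a median log2 ratio of 0.24 against the shift of 0.15 of all genes. Past the threshold on the higher side lay 13 of the 53 and on the lower side 2, beside 13.9% and 15.9% of all tested genes. Ligands were scarce in these epithelial cells. Of 19 Wnt ligands only Wnt3, the Wnt made by Paneth cells, was tested, with 23.8 CPM in Paneth-like cells of WT and 31.9 CPM in those of Tipe0-/- and a whole-library log2 ratio of 0.33 (0.06 to 0.59), and none of the 4 R-spondins had more than 5 UMIs in both libraries together. Wls, the carrier that Wnts need for secretion, stood at 38.6 CPM in WT and 68.1 in Tipe0-/-, giving a log2 ratio of 0.82 (0.72 to 0.92), with ratios of 0.53 to 1.29 in the 8 classes or clusters in which it was tested. These lay past the threshold in 7, and in Paneth-like cells the ratio was 0.63 against a shift of 0.48.

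Of the other receptors and co-receptors, 10 of 14 were tested. Above the threshold lay 5 of them, beside 13.9% of all tested genes. These were Fzd1 (0.86), Fzd2 (0.78), Fzd4 (0.55), Fzd6 (0.99) and Ror2 (1.15, 0.63 to 1.69). Below it lay Fzd9 (-0.44, -1.17 to 0.23), beside 15.9% of all tested genes. Each of these 6 had between 27 and 133 UMIs in a library, so their counting error is larger than that of genes with more UMIs. All but Ror2 and Fzd9 were named after their values were seen. Of the secreted and surface inhibitors 3 of 16 were tested, among them Sfrp5, which had 21 UMIs in WT and 34 in Tipe0-/- and a log2 ratio of 1.36 (0.54 to 2.23), and Kremen2, with 0.09 (-0.26 to 0.43).

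The cytoplasmic part of the pathway moved little. Of 16 tested transducers and destruction complex genes 0 lay past the threshold in either direction, beside 13.9% of all tested genes above and 15.9% below. Their ratios ran from 0.03 (-0.33 to 0.37) for Amer1 to 0.35 (-0.04 to 0.72) for Dvl2, with 0.17 (0.13 to 0.21) for Ctnnb1, the gene of β-catenin. Of 9 nuclear factors 2 lay above, beside 13.9% of all tested genes, Tcf7 with 0.67 (0.23 to 1.12) and Pygo2 with 0.52. The lowest was Ctnnbip1 with -0.08 (-0.20 to 0.03). Among 13 other target genes, 4 lay above, beside the same 13.9%. These were Myc with 1.13 (0.99 to 1.27), Ascl2 with 0.65, Tnfrsf19 with 0.62 and Sox9 with 0.55. Mmp7, which is also a Paneth cell gene, lay below with -0.32 (-0.36 to -0.27), beside 15.9% of all tested genes. Pygo2, Ascl2, Tnfrsf19 and Sox9 were named after their values were seen, and Ascl2 and Tnfrsf19 belong to the stem marker list, whose summed CPM was 550 in WT and 714 in Tipe0-/- libraries. Within stem-like cells Myc stood at 57.0 CPM (49.4 to 65.6) in WT and 101 CPM (90.6 to 112) in Tipe0-/-, and these intervals did not overlap. The share of all genes without overlap in this class is not given.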

How the data were processed

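Per the labels and the methods of the study, the authors captured cells with 10X Single Cell 3′ v2 chemistry and used Cell Ranger to align reads to mm10 and count UMIs. The deposited matrices hold raw UMI counts per gene and cell of the cells that Cell Ranger kept, before any equalization of depth, and no further filter was applied (lowest cell 3247 UMIs in WT and 3562 in Tipe0-/-).

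UMIs were summed per library and class, divided by the total (CPM), and compared as log2 ratios with 0.5 added to each sum, for genes whose UMIs summed to 50 or more over the libraries. Genes were counted as higher or lower where the log2 ratio lay at least 0.32 from the median of the genes tested. Clustering used Seurat 5.3.0 (R 4.3.3) on log-normalized counts, with variable genes chosen on mean and dispersion, 14 principal components and resolution 0.8, after the 10 genes, 99 other Wnt genes and genes the study lists as different between genotypes were left out, which kept 524 of 582 variable genes. A cluster was named for the class whose markers had the largest average z-score, if at least 3 markers are in at least 10% of its cells and at least 1.5 times the share in other cells, or the class with more of its 10 leading genes. This last clause was added after cluster 3 had been seen. Its score was 0.749 for cycling and 0.647 for stem markers, 11 of 14 stem markers passed, and it is led by Lgr5, Ascl2 and Scn2b. The stem and cycling scores were close, so stem-like values also depend on this choice. No doublet caller was run, and an alternative leaves out the 5% of cells with the most UMIs. Cells were thinned to 3000 UMIs by seeded draws without replacement (numpy 2.4.6, Python 3.11.15). Likeness is Pearson's r of log2(CPM + 1) over clusters.

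The 10 genes, the other lists and the markers were chosen with earlier results of these data known. Named genes are the 10, the 3 genes most like each, the highest and lowest of each role among other Wnt genes, Ctnnb1 and Tnfaip8. Alternatives changed the library total, the class makeup, the cells counted, the depth, the clustering and the minimum count.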

Additional observations from a re-analysis of the deposited data

How the results depend on the processing

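With 1 library per genotype, no replicate could be left out, and the depth limits Nkd1, Notum and most values within single classes. No paired analysis was possible because each genotype has 1 library. The median log2 ratio of the 9 tested genes, 0.48 as reported, was 0.32 with libraries scaled so that the median of all genes is 0, 0.30 at the same makeup of classes and 0.31 at the same makeup of the 13 clusters, a setting chosen after seeing the data. The number past the threshold on the higher side, 5 as reported, was 2 at the same makeup of classes and 2 at that of clusters. Beside these counts of 2 no share of all tested genes at the same makeup is given. The median of the other Wnt genes, 0.24 as reported, was 0.090 under the scaling. Fzd5 and Fzd7 lay past the threshold in 9 of 9 alternatives, Lgr5 and Axin2 in 7, Rnf43 in 5, Znrf3 in 2, and Lgr4 and Lrp6 in 0, although those 8 genes lay above the shift in each. By shares of cells, Fzd7 lay above the lymphocyte-like background in 0 of 8 classes of either library. The median share of a gene's UMIs in stem-like cells, 23.1% in WT and 23.6% in Tipe0-/- as reported, was 15.9% and 16.4% with 2000 variable genes by variance stabilization, 15.9% and 15.0% at resolution 1.2, 17.97% in WT with integration and 29.1% in WT with cells thinned to 3000 UMIs. Without cluster 3, a setting added after seeing the data, it was 4.41% and 4.72%. Fzd7 in stem-like cells, with a log2 ratio of -0.40 as reported, reversed to 0.082 with each cell named by its own marker scores and to 0.14 with thinned cells. The scaling only subtracts the shift of 0.15 from each ratio. As 1 of the 9 alternatives it therefore cannot change a distance from the shift. Leaving out cluster 3 lowers the stem-like share by definition. The causes of the other changes were not tested. Of the recomputed main values 86 stayed within counting error and 14 moved past it, and of those of single genes, levels within classes and shares of cells 1286 stayed, 274 moved and 2 reversed.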

Other observations

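Enteroendocrine-like cells formed no cluster in the clustering reported, but did with 2000 variable genes by variance stabilization, led by the hormone genes Nts, Pyy, Cck, Ghrl and Gcg, with 43 cells in WT and 29 in Tipe0-/-. In these cells Lgr5 stood at 85.9 CPM (62.4 to 115) in WT from 44 UMIs and at 50.1 CPM in Tipe0-/- from 23 UMIs. Axin2 stood at 125 CPM (96.2 to 160) and 144 CPM, and Lgr4 at 83.9 and 113 CPM. Rnf43 had 19 UMIs in WT and 14 in Tipe0-/-, and Notum had 0 in both. Each of these values has a counting interval wider than most differences between the libraries, and no direction is given.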
